A study of Mus musculus with 2 samples.

Results

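A set of 10 genes of the neuromuscular junction and its acetylcholine receptor was followed in skeletal muscle of Jhdm2a null and wild-type mice. They were chosen by name, and every probe set annotated to exactly 1 of their symbols was taken, which gave 13 probe sets for 10 genes out of 34945 probe sets for 18193 genes. The null group is 1 array of RNA combined from 3 Jhdm2a null mice, and it is set against 1 array of RNA combined from 3 wild-type mice. All animals were males aged 3 months, from a 129 embryonic stem cell line with 4 generations of backcross to C57BL/6. Jhdm2a, now named Kdm3a, encodes a histone demethylase. Both arrays were Affymetrix Mouse Genome 430 2 arrays, and the values are MAS5 signals per probe set on a linear scale. Which muscle was taken and which part of the gene was disrupted are not given in the sources used here.

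A junction is the site where a motor axon contacts a muscle fibre. Acetylcholine released by the axon opens a receptor of 5 subunits in the fibre membrane. Chrna1, Chrnb1, Chrnd and Chrne encode the alpha, beta, delta and epsilon subunits of the adult receptor, and Chrng encodes the gamma subunit that stands in place of epsilon in the fetal form. Agrin from the axon binds Lrp4, which activates the receptor tyrosine kinase Musk together with its cytoplasmic adaptor Dok7. Rapsn encodes rapsyn, the scaffold that clusters the receptors, and Colq encodes the collagen tail that anchors acetylcholinesterase in the synaptic cleft. In innervated adult fibres several of these genes are transcribed mainly by the nuclei beneath the junction, and loss of the nerve is known to raise Chrng and Chrna1 along the fibre.

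Promoter windows of 250 bases before to 50 bases after the start of transcription were held for 6 of the 10 genes in the RefSeq table of GRCm38.p6. Those of Chrne, Chrng and Chrna1 are shown because they drive the adult subunit with the largest ratio, its fetal counterpart, and the subunit common to both receptor forms. Capitals mark the E-box CANNTG, the sequence that myogenic factors bind, and the N-box core CCGGAA, a sequence known from synaptic genes as a site for GABP.
Chrne, chr11:70619145-70619444, minus strand: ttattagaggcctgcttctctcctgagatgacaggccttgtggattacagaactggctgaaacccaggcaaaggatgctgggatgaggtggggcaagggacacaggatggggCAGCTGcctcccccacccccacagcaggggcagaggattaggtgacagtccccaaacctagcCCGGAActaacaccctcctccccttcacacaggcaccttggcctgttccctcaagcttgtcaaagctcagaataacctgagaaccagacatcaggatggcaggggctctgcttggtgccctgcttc
Chrng, chr1:87205561-87205860, plus strand: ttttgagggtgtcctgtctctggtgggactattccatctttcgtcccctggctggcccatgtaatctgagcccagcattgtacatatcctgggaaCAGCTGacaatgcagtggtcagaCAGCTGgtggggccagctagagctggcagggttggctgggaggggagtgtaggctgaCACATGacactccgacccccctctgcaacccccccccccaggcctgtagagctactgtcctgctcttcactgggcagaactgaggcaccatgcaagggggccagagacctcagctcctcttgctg
Chrna1, chr2:73580289-73580588, minus strand: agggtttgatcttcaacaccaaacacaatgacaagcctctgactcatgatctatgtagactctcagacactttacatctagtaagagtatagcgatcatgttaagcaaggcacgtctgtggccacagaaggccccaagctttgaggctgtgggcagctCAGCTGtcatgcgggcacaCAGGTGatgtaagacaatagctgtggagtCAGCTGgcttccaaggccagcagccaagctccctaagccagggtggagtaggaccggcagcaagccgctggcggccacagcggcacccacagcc
The E-box form CAGCTG, which is one of the sequences that CANNTG covers, occurred in 4 of the 6 genes with a window, Chrna1, Chrne, Chrng and Musk. It was present in 16.3% of all 32851 windows of the table. Any CANNTG occurred in all 6 genes and in 72.3% of all windows. CCGGAA, searched on both strands, occurred in the Chrne window alone among the 6 genes, 76 bases before the start, and in 14.9% of all windows. Such a match is a run of letters and not a measured binding site. The Chrng window held CAGCTG 155 and 132 bases before the start, and the Chrna1 window held it 92 and 44 bases before.

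The genotype labels and the tissue were checked first. The only Kdm3a probe set read 487.5 in the pool labelled null and 406.1 in the pool labelled wild-type, a log2 ratio of 0.26. The null label is therefore not borne out by a lower Kdm3a signal, and a probe set outside the disrupted part would not show the loss. The pools are called null-labelled and wild-type-labelled from here on, and each direction rests on those labels. The tissue label was checked against fibre markers, and all 16 genes of a skeletal muscle fibre list, such as Ckm, Acta1 and Myh4, were above the floor on both arrays. The floor is the 60th percentile of the signals of both arrays, a signal of 182. The arrays had 18026 and 18004 probe sets above it. With 1 array per genotype there is no replicate check and no p-value, and each higher or lower level describes these pooled RNAs only. Probe sets of 1 gene differed from each other in log2 ratio with a pooled SD of 0.29 over 3719 genes, which is a technical spread and leaves out variation between mice.

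Most of the measured junction genes read slightly higher in the null-labelled pool. Of the 7 measured, 3, Chrne, Rapsn and Chrnb1, were further from 0 than the technical spread, as were 35.2% of all measured genes. Of the 10 genes, 7 were above the floor on both arrays, and 6 of these 7 had a log2 ratio above 0, where 55.7% of all 9696 measured genes did and 44.3% were below 0. Only Chrne passed 1.5-fold, so 1 of 7 was at least 1.5-fold higher, against 3.38% of all measured genes. None of the 7 was at least 1.5-fold lower, against 6.34% of all measured genes, and none reached 2-fold in either direction, against 0.371% of all measured genes higher and 2.37% lower. The median log2 ratio of the 7 genes was 0.21, with a range of -0.26 to 0.63, beside a median of 0.04 over all measured genes. Fibre genes that are not tied to the synapse had a median of 0.18 over 16 genes, so the junction median lay 0.03 above that of these markers. The medians were 0.18 for the junction genes and 0.07 for the fibre markers after loess normalization, and 0.24 and 0.08 after quantile normalization. In bulk RNA a different number of cells of a type and a different amount of RNA per cell cannot be told apart.

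**Figure D1:**
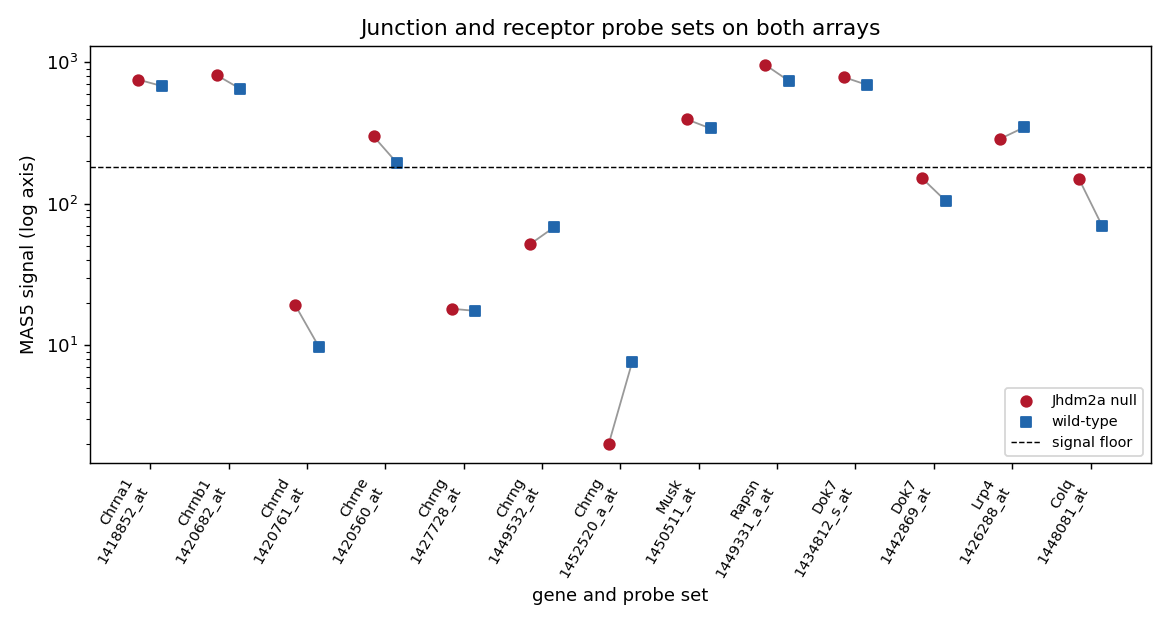
MAS5 signal (log axis) of the 13 probe sets of the 10 genes, with a red circle for the null-labelled array, a blue square for the wild-type-labelled array and a dashed line at the signal floor of 182. Probe sets of 7 genes lie above the floor on both arrays, while those of Chrnd, Chrng and Colq and the dimmer probe set of Dok7 lie below it on both.

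Among the receptor subunits, the 3 measured ones were all higher in the null-labelled pool, as were 55.7% of all measured genes. The fetal subunit was below the floor in both pools. The Chrna1 probe set, for the alpha subunit that holds most of the acetylcholine binding site, read 752.4 in the null-labelled pool and 677.9 in the wild-type-labelled pool. Its log2 ratio of 0.15 is smaller than the technical spread. Chrnb1, for the beta subunit, read 808.5 in the null-labelled pool and 648.4 in the wild-type-labelled pool, a log2 ratio of 0.32. That lies just past the spread of 0.29.

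Chrne, the subunit that marks the adult receptor, had the largest ratio of the measured genes. Its only probe set read 299.2 in the null-labelled pool and 193.7 in the wild-type-labelled pool, 1.54-fold higher with a log2 ratio of 0.63. The wild-type-labelled signal is 1.06 times the floor, so the ratio rests on a dim signal. Among the 2054 measured genes whose mean signal was no more than 2 times the floor, 3.85% were at least 1.5-fold higher, and probe sets of 1 gene in that range differed with an SD of 0.33. With the floor set at the 75th percentile Chrne was no longer measured and 0 junction genes passed 1.5-fold.

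The fetal subunit gave no signal above the floor in any of its 3 probe sets. Chrng probe set 1449532_at read 51.9 in the null-labelled pool and 68.0 in the wild-type-labelled pool. Probe set 1427728_at read 18.1 in the null-labelled pool and 17.5 in the wild-type-labelled pool. Probe set 1452520_a_at read 2.0 in the null-labelled pool and 7.6 in the wild-type-labelled pool. The 3 probe sets disagree in direction, and no fold is given for signals that all lie below the floor. A difference between Chrne and Chrng ratios was for the same reason not computed. Chrnd, which both receptor forms contain and whose gene neighbours Chrng, had a single probe set at 19.2 in the null-labelled pool and 9.8 in the wild-type-labelled pool. Both pools thus lay below the floor for a subunit of the adult receptor as well as for the fetal one. Such a reading bounds the signal of a probe set and not the amount of RNA. Whether these probe sets detect their transcripts was not tested.

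In the clustering pathway, 3 of the 4 measured genes were higher in the null-labelled pool and 1 was lower, where 55.7% of all measured genes were higher. Rapsn alone of the 4 passed the technical spread. Lrp4, the agrin receptor, was the 1 measured gene of the 10 with a lower signal, 288.2 in the null-labelled pool and 345.8 in the wild-type-labelled pool, a log2 ratio of -0.26. Musk, the kinase that Lrp4 activates, read 394.0 in the null-labelled pool and 340.5 in the wild-type-labelled pool, a log2 ratio of 0.21. Each of these ratios is smaller than the technical spread, and their difference was not tested. Lrp4 was dim, at 1.58 times the floor in the null-labelled pool and 1.90 times in the wild-type-labelled pool. Musk lay at 2.16 and 1.87 times the floor.

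Rapsn, the receptor scaffold, read 957.0 in the null-labelled pool and 737.6 in the wild-type-labelled pool, a log2 ratio of 0.38. Dok7 had 2 probe sets that both read higher in the null-labelled pool. Probe set 1434812_s_at read 785.0 in the null-labelled pool and 690.5 in the wild-type-labelled pool, a log2 ratio of 0.19. The dimmer 1442869_at read 151.4 in the null-labelled pool and 104.9 in the wild-type-labelled pool, below the floor on both. Colq likewise stayed below the floor, at 150.6 in the null-labelled pool and 69.4 in the wild-type-labelled pool.

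**Figure D2:**
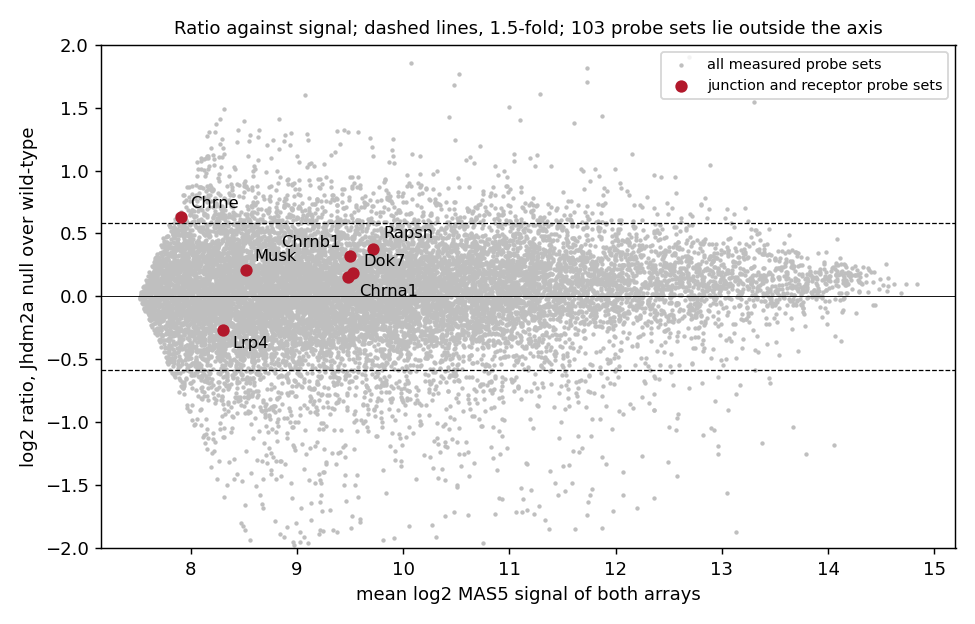
Log2 ratio of null-labelled over wild-type-labelled signal against the mean log2 signal of both arrays, for all measured probe sets (grey) and those of the 7 measured junction genes (red), with dashed lines at 1.5-fold and 103 probe sets outside the axis. The red points lie inside the grey cloud, and Chrne alone is past the upper dashed line, near the dim end.

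The ratios of the 7 genes were compared with those of the 16 fibre markers, which ran from -0.04 to 0.26. Chrna1, Dok7 and Musk fell inside that range, Chrnb1, Rapsn and Chrne lay above it, and Lrp4 lay below it. Chrne was the only gene above the range by more than the technical SD of 0.29. These placements used the reported setting and were not repeated after loess or quantile normalization. On the same arrays the ratios of adipocyte and hepatocyte genes were below 0. All 10 measured adipocyte markers of 17 listed were below 0, with a median of -2.31, and Ucp1, the uncoupling protein of brown fat, read 283.4 in the null-labelled pool and 14884.9 in the wild-type-labelled pool. All 5 measured hepatocyte markers of 20 listed were below 0 too, with a median of -2.87. Of all measured genes 44.3% were below 0. Pparg, Elovl3 and Otop1 of the first list and Apoa1, Apoa2, Fga, Hpx and Ttr of the second passed the floor only in the wild-type-labelled pool. Fewer cells of these types and less RNA per cell cannot be told apart here. The part of these lower adipocyte and hepatocyte signals in the junction ratios was not tested.

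**Figure D3:**
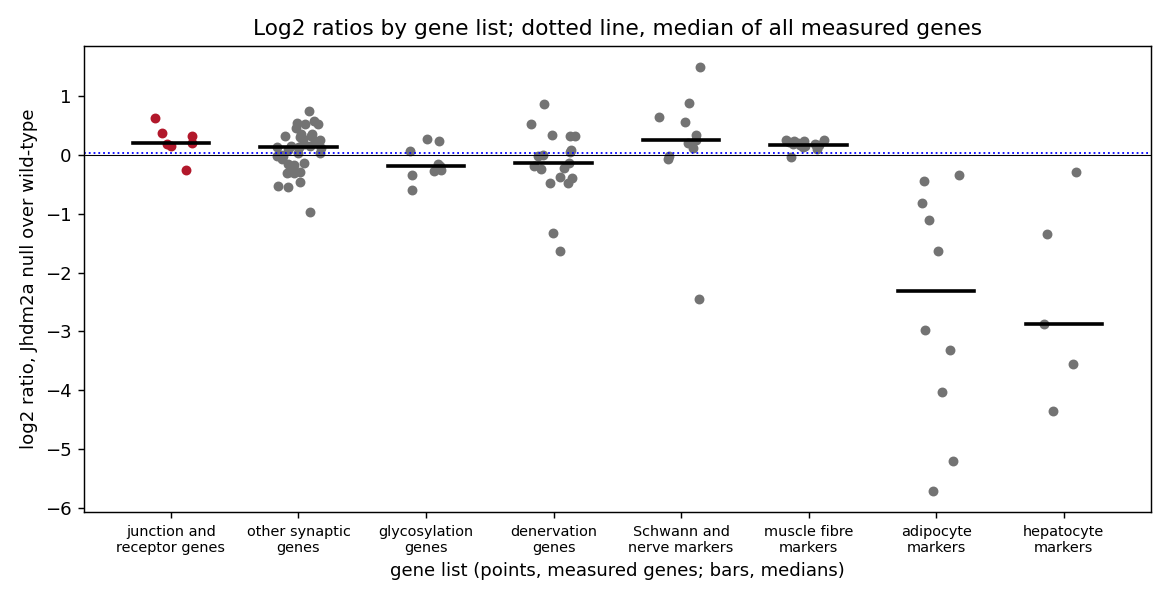
Log2 ratio of null-labelled over wild-type-labelled signal for each measured gene (points) of 8 gene lists, with the median of each list as a bar and that of all 9696 measured genes as a dotted line. The junction genes (red, median 0.21) sit beside the muscle fibre markers (median 0.18), while adipocyte and hepatocyte markers have medians of -2.31 and -2.87.

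Other genes of the synapse had ratios on both sides of 0. Of 52 genes for agrin signalling, the synaptic basal lamina and the postsynaptic scaffold, 39 were measured, 25 above 0 and 14 below, with a median of 0.14. At 1.5-fold 1 was higher and 1 lower, against 3.38% and 6.34% of all measured genes. Of all measured genes 55.7% were above 0. Ache, the acetylcholinesterase that Colq anchors, read 714.8 in the null-labelled pool and 555.5 in the wild-type-labelled pool, a log2 ratio of 0.36. Agrn, for agrin itself, read 209.6 in the null-labelled pool and 236.4 in the wild-type-labelled pool, a log2 ratio of -0.17, and a further probe set was below the floor. Both measured Agrn signals lie near the floor of 182, so this ratio rests on a dim signal. The cell source of the Agrn signal was not tested, so it is not read as agrin from the axon. Agrn and Lrp4 each had a ratio below 0 and smaller than the technical spread.

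Scaffold and signalling genes of the synapse gave single larger ratios. Sorbs2, an adaptor of the actin cytoskeleton, read 3044.3 in the null-labelled pool and 1822.1 in the wild-type-labelled pool, a log2 ratio of 0.74, in the 1 of its 4 probe sets that passed the floor in both pools. Cdk5, a kinase that acts against receptor clustering in cultured muscle cells, had a log2 ratio of -0.98 from probe set 1450674_at. Its probe set 1422590_at read 195.6 in the null-labelled pool and 137.7 in the wild-type-labelled pool, the opposite direction, with the second value below the floor. Sntb1, a syntrophin of the dystrophin complex, had -0.55 ± 0.22 (SD of 4 probe sets). Rapgef2, a guanine nucleotide exchange factor, had 0.57. Utrn, for utrophin, the dystrophin relative found at the junction, had -0.06, and the neuregulin receptor Erbb3 had -0.02. Erbb2, its partner, read 181.6 in the null-labelled pool and 174.8 in the wild-type-labelled pool, just below the floor on both. Scn4a, the sodium channel of the fibre, had no probe set with a single symbol here.

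Factors that act on synaptic promoters were read beside the sequences above. Gabpa, the DNA-binding part of GABP, averaged 0.14 ± 0.15 on the log2 scale (SD of 2 probe sets), and Gabpb1, its partner subunit, had 0.30. Gabpb1 read 269.3 in the null-labelled pool and 218 in the wild-type-labelled pool, a dim signal. Its other probe set was below the floor. Etv5, an Ets factor needed for synaptic transcription in mouse muscle, read 1312.8 in the null-labelled pool and 903.3 in the wild-type-labelled pool, a log2 ratio of 0.54. That was the 1 of its 3 probe sets above the floor in both pools. These 3 genes were picked for their role after their values were seen. Myog, for the E-box factor myogenin, read 556.8 in the null-labelled pool and 636.7 in the wild-type-labelled pool, a log2 ratio of -0.19.

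Genes known to respond to loss of the nerve lay on both sides of 0. Of 28 listed, 19 were measured, 7 above 0 and 12 below, with a median of -0.14. Of all measured genes 55.7% were above 0 and 44.3% below. At least 1.5-fold higher was 1, against 3.38% of all measured genes. It was Ankrd1, a repeat protein of the sarcomere, at 0.86. Its wild-type-labelled signal was 1.12 times the floor, and its other probe set passed the floor only in the null-labelled pool. At least 1.5-fold lower were 2, against 6.34% of all measured genes. They were the metallothionein Mt1 at -1.63 and the nicotinamide methyltransferase Nnmt at -1.33. Adipocyte and hepatocyte genes were lower in the same RNA, and a link of these to Mt1 and Nnmt was not tested. Gadd45a, a stress gene that denervation raises, read 612.7 in the null-labelled pool and 578.1 in the wild-type-labelled pool, a log2 ratio of 0.08. Fbxo32, a ubiquitin ligase of muscle atrophy, had 0.53 ± 0.31 (SD of 3 probe sets). Ncam1, an adhesion molecule that spreads along denervated fibres, was below the floor in all 7 probe sets, and none of the 6 probe sets of Runx1 was above the floor on both arrays.

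Nerve content was followed with Schwann cell and nerve markers. Of 30 listed, 11 were measured, with a median of 0.26, and 8 of 11 were above 0. At 1.5-fold 3 were higher and 1 lower, against 3.38% and 6.34% of all measured genes. Of all measured genes 55.7% were above 0. The myelin gene Mbp had 0.57 ± 0.14 (SD of 6 probe sets), though its probe set 1425264_s_at passed the floor only in the wild-type-labelled pool. Pmp22 and Mal, also of myelin, had 0.65 from 1 probe set and 0.88 ± 0.34 (SD of 2 probe sets). Ncmap, a myelin protein of peripheral nerve, read 531.4 in the null-labelled pool and 188.9 in the wild-type-labelled pool, a log2 ratio of 1.49. The second value is 1.04 times the floor, so this ratio rests on a dim signal. S100b, which brown fat also makes, had -2.46. The cell source of the S100b signal was not tested, and neither was that of the Pmp22 signal. Erbb3, counted here as in the synapse list, had -0.02. The other measured markers were Cnp at 0.34, Mag at 0.26, Sox10 at 0.20, Stmn2 at 0.12 and L1cam at -0.07. Stmn2 read 217.8 in the null-labelled pool and 201 in the wild-type-labelled pool, near the floor. The part of nerve content in the junction ratios was not tested.

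Glycosylation genes whose human counterparts are mutated in congenital myasthenic syndromes or related disorders mostly had ratios below 0. Of 10 listed, 9 were measured, with a median of -0.19, and 6 of 9 were below 0, against 44.3% of all measured genes. Alg1, a mannosyltransferase, was the 1 gene at least 1.5-fold lower, at -0.59, where 6.34% of all measured genes were. Dpm2, a subunit of the mannose donor synthase, had -0.35, Gmppb, which makes GDP-mannose, had -0.28, and Gfpt1, the first enzyme of the hexosamine pathway, had 0.27.

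Acetylcholine receptors of neurons and of other tissues served as a low-signal comparison. Of 16 listed, 13 had a probe set with a single symbol, and 1 was measured. Chrnb2, a neuronal beta subunit, read 194.7 in the null-labelled pool and 191.9 in the wild-type-labelled pool, a log2 ratio of 0.02. For the other 12, no probe set passed the floor in both pools.

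Satellite cell and myogenic genes had a median of -0.09 over 9 measured of 12, with Sdc4, a cell surface proteoglycan, at -1.12 ± 0.95 (SD of 2 probe sets). Tendon and fibroblast genes had a median of 0.15 over 11 measured of 12. None passed 1.5-fold, against 3.38% of all measured genes higher and 6.34% lower. Of the 14 neutrophil genes listed, Ngp was the 1 measured, at 2.63, and 6 more passed the floor only in the null-labelled pool with a signal of at least 2 times the floor. S100a8, a subunit of the neutrophil protein calprotectin, was at least 12.9-fold higher there. The part of neutrophil content in the junction ratios was not tested.

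**Figure D4:**
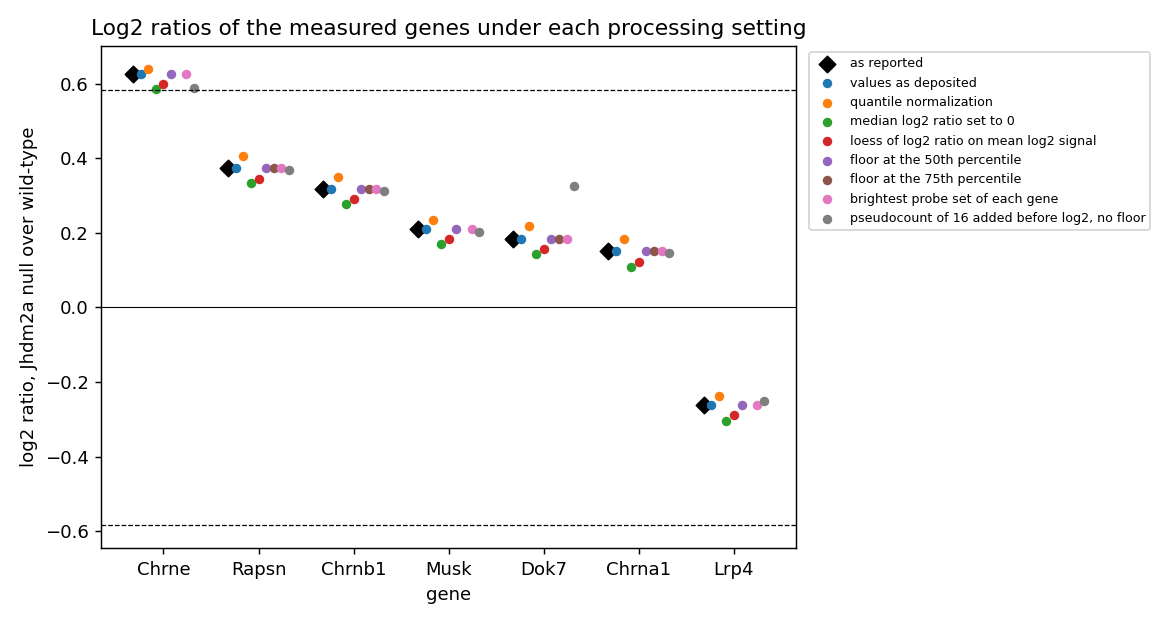
Log2 ratio of null-labelled over wild-type-labelled signal of the 7 measured junction genes under the reported setting (black diamonds) and 8 alternatives (circles), with dashed lines at 1.5-fold. Each gene keeps its sign under every setting in which it has a value, and Chrne stays between 0.59 and 0.64. Each gene has a single measured probe set, so the other floors and the brightest probe set returned the same ratios. The deposited values did too, because their trimmed means were already equal.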

How the data were processed

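RNA of 3 pooled mice per genotype was measured on 1 array each, labelled from 7 µg of total RNA per the labels' protocols. The authors deposited 1 intensity per probe set, a linear MAS5 signal per the submitters' processing notes. No MAS5 version or genome build is given in the sources used here. As deposited, the 2% trimmed mean was 500.003 for each array, so rescaling to a common trimmed mean changed nothing. No detection calls were at hand, so the 60th percentile of the 45037 non-control probe sets, a signal of 182, served as floor. Probe sets above it in both pools counted as measured, and their log2 ratios, null over wild-type, were averaged per gene. Genes were named from the platform annotation, using probe sets with 1 symbol. All 10 junction genes matched a RefSeq gene identifier (GRCm38.p6), and 0 of them lie on the chromosome of Kdm3a. The 64 control probe sets were left out. No columns of other samples were present (0). With 1 array per genotype no test was run. The number of arrays limits the precision.

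The junction genes and the 11 other lists were chosen with earlier results of these data known. Named genes are all 10 junction genes, Kdm3a, the 4 measured genes of each other list furthest from 0 at most, genes above the floor on 1 array with at least 2 times the floor, and a fixed set of synapse, denervation, nerve and fat genes. Gabpa, Gabpb1, Etv5, Ckm and Myh4 stand outside that rule and were picked after values were seen. Cnp, Mag, Sox10, Stmn2 and L1cam also stand outside it and were named to complete the measured nerve markers. The steps were tested on simulated data with known ratios. The changes were put only into genes with a wild-type signal above 4 times the floor. That test therefore does not cover dim genes such as Chrne. Its noise was set below the technical SD, and recovery was checked as means over genes, not for single genes. Alternatives were no rescaling, quantile normalization, centring on a median log2 ratio of 0, loess with a span of 0.3, floors at the 50th and 75th percentiles, the brightest probe set of each gene, and a pseudocount of 16 with no floor. Python 3.11.15, numpy 2.4.6, pandas 2.3.3 and statsmodels 0.14.6 were used.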

Additional observations from a re-analysis of the deposited data

How the results depend on the processing

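The median log2 ratio of the measured junction genes stayed between 0.17 and 0.32 under the 8 alternatives, and each of the 7 genes kept its sign wherever it had a value. Each gene has a single measured probe set, so the other floors and the brightest probe set returned the same ratios. No rescaling did too, because the trimmed means were already equal. A value was taken as moved when it differed by more than the technical SD of 0.29. The number of junction genes at least 1.5-fold higher was 0 with the floor at the 75th percentile, where Chrne, Musk and Lrp4 go unmeasured, and 2 with a pseudocount of 16 and no floor, where Chrne and Colq pass. In that setting all 10 genes have a value, 8 of them above 0, and Colq has 0.96, Chrnd 0.45 and Chrng -0.22, each from signals below the floor. The adipocyte median was -2.98 with the floor at the 50th percentile and -3.08 with the pseudocount, and the hepatocyte median was -2.17 with the pseudocount. The medians of the other 7 lists with at least 3 measured genes moved by less than 0.29. The neutrophil and other acetylcholine receptor lists, with 1 measured gene each, were not recomputed, and the hepatocyte list had too few measured genes at the 75th percentile floor. The muscle fibre median ranged from 0.07 to 0.18, and the median of the denervation list from -0.18 to -0.01. No difference of Chrne and Chrng ratios was computed, because Chrng was below the floor. No paired analysis was possible because each genotype has 1 array. Signals below the floor limit what can be said of Chrnd, Chrng and Colq.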
